A study of Mus musculus with 6 samples.

Results

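The genes described here are 10 genes that mark astrocytes or their reactive state, namely *Gfap*, *Vim*, *Serpina3n*, *Lcn2*, *Cd44*, *Aqp4*, *Osmr*, *Timp1*, *S100b* and *Aldh1l1*. They were taken by gene symbol from the count and FPKM tables, where all 10 were found among 51826 genes, and 9 of the 10 had enough counts to be tested. RNA of the cortex was sequenced on day 3 after 10 Gy of X-rays to the whole brain, in 3 libraries from wild-type mice (*Lgmn*+/+-IR) and 3 from mice with a targeted *Lgmn* gene (*Lgmn*−/−-IR). *Lgmn* encodes asparagine endopeptidase (AEP), a lysosomal cysteine protease. All animals were young adult male Balb/c mice, and the knockouts were bred as *Lgmn* flox/flox: Cre+ animals, so that they also carried Cre. The promoter that drives Cre and the strain of the targeted embryonic stem cells are not given in the sources used here. The study's methods describe wild-type mice as purchased and also describe a random allocation of littermates of 1 sex, without saying which applies to the sequenced animals. Both groups were irradiated, so the comparison below is between genotypes after irradiation and not with non-irradiated cortex. The libraries are called wild-type and knockout for short where counts are listed. *Lgmn* itself was counted 5558, 5528 and 5775 times in wild-type and 3703, 3269 and 4109 times in knockout cortex (log2 fold change −0.64, adjusted *p* = 0.0315 by edgeR's quasi-likelihood test), lower in every knockout library but far from absent. This call was lost without any 1 of the wild-type libraries or knockout replicate 1 (adjusted *p* = 0.0949 to 0.131). Counts were given per gene, so a deleted stretch could not be read apart from the remaining exons.

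Astrocytes answer injury by becoming reactive. They enlarge and build up intermediate filaments of glial fibrillary acidic protein and vimentin, and they secrete protease inhibitors and iron-binding proteins. Signaling through gp130 receptors, of which the oncostatin M receptor is an example, and the transcription factor STAT3 is a well-known route to this state, and *Gfap*, *Vim* and *Serpina3n* are commonly read as its markers. The question was therefore whether *Serpina3n*, which encodes a secreted serine protease inhibitor, fell together with *Gfap* and *Vim* in *Lgmn*−/−-IR mice or alone.

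*Serpina3n* fell, and the filament genes *Gfap* and *Vim* did not pass the test. The level of *Serpina3n* in *Lgmn*−/−-IR mice was 0.562-fold that of *Lgmn*+/+-IR mice, whereas *Gfap* was 1.26-fold and *Vim* 0.938-fold. In bulk tissue fewer cells of a type and less RNA per cell cannot be told apart. *Aqp4*, which encodes the water channel of astrocyte endfeet, rose 1.47-fold. The other 5 genes that could be tested, *Cd44*, *Osmr*, *Timp1*, *S100b* and *Aldh1l1*, did not pass the test. Counts were compared with edgeR's quasi-likelihood test, with *p* values adjusted by the Benjamini-Hochberg method over all 18345 genes tested. By an adjusted *p* value under 0.05, 2 of the 9 genes were called (22.2%, against 3.33% of all genes tested, of which 1.65% were higher and 1.68% lower). Neither was past the study's further threshold of an absolute log2 fold change over 1, which together with the adjusted *p* value was met by 2.06% of all genes tested. An unadjusted *p* value under 0.05 was found for 3 of the 9 genes, beside 18.6% of all genes tested. The libraries of the genotypes did not overlap for 3 of the 9 genes (33.3%), a share near the 25.7% of all genes tested (12.4% higher and 13.3% lower). A log2 fold change above 0 was found in 6 of the 9 genes, beside 48.3% of all genes tested. The median log2 fold change of the 9 genes was 0.13, and that of all genes tested was −0.01.

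**Figure D1:**
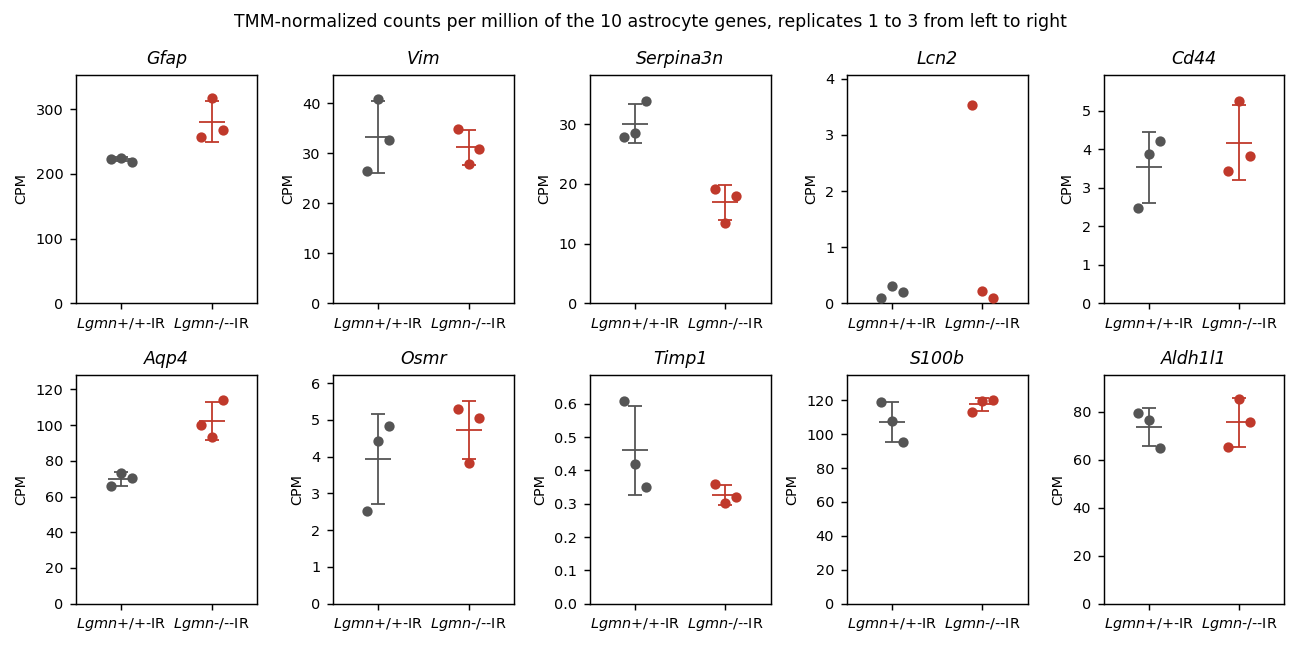
CPM (counts scaled to TMM-normalized library size) of each of the 10 genes in the 3 *Lgmn*+/+-IR (grey) and 3 *Lgmn*−/−-IR (red) libraries, with the mean and SD as bars (none for *Lcn2*, whose mean minus SD falls below 0). *Serpina3n* is lower and *Aqp4* and *Gfap* are higher in every *Lgmn*−/−-IR library, *Vim* overlaps between genotypes, and 1 library stands out for *Lcn2*.

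The letters before the start sites of *Serpina3n* and *Gfap* are shown because the comparison turns on this pair. They were taken from RefSeq (GRCm38.p6), which gave a promoter for 9 of the 10 genes. The *Serpina3n* stretch covers 250 bases before the start on the plus strand of chr12:104406458-104406707, and the *Gfap* stretch covers 257 bases, 7 of them after the start, on the minus strand of chr11:102897194-102897450. Capitals mark a match to TTCNNNGAA, the letters of a STAT site, which reads the same on both strands.
Serpina3n: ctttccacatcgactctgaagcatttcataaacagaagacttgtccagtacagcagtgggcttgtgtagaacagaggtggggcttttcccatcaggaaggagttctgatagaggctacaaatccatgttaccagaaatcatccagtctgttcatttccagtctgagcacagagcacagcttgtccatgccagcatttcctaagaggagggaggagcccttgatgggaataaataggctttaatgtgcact
Gfap: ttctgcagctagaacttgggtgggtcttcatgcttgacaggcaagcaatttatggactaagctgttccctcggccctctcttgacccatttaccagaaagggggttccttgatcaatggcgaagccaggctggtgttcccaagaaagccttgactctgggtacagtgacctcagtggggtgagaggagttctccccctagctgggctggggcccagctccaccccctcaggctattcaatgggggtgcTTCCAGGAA

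The match TTCCAGGAA in *Gfap* also fits the stricter TTCCNGGAA, which overlaps the first motif and is equal to its own reverse complement as well. Among 32851 promoters of 300 bases, 8.3% held TTCNNNGAA and 1.15% held TTCCNGGAA. *Gfap* was the only gene with such a match among the 9 whose promoters were searched, and the window of *Serpina3n* held none. The letters TGANTCA, a loose form of the AP-1 site, were found in 7.81% of promoters on either strand. Among these 9 genes they occurred in *Osmr* alone, as TGATTCA after the start. Letters outside these 300 bases were not searched, so sites farther from the start would be missed. A match describes letters only, and binding was not measured.

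*Serpina3n* (ENSMUSG00000021091, chromosome 12 of GRCm38, 104406729 to 104414329, plus strand) was counted 1191, 1222 and 1539 times in the wild-type libraries, and 853, 628 and 790 times in the knockout libraries. All knockout values lay under all wild-type values. Scaled to library size this was 30.1 ± 3.26 and 16.9 ± 2.99 CPM, that is, counts scaled to TMM-normalized library size (SD, n = 3 each), and the log2 fold change was −0.83 (standard error 0.16, 95% interval −1.20 to −0.46, adjusted *p* = 0.0373 by edgeR's quasi-likelihood test). The call needed all 6 libraries. Without *Lgmn*+/+-IR replicates 1, 2 and 3 in turn the adjusted *p* values were 0.0776, 0.120 and 0.130, and without *Lgmn*−/−-IR replicates 1, 2 and 3 they were 0.0617, 0.0531 and 0.102, while the log2 fold change stayed between −0.93 and −0.69.

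*Gfap* (ENSMUSG00000020932, chromosome 11, 102887336 to 102900912, minus strand), the principal intermediate filament of astrocytes, was counted 9539, 9634 and 9971 times in wild-type and 11408, 14705 and 11766 times in knockout cortex. The *Lgmn*−/−-IR libraries were all above the *Lgmn*+/+-IR libraries, which lay close together, with *Lgmn*−/−-IR replicate 2 the highest. The levels were 223 ± 2.99 and 281 ± 31.9 CPM (SD, n = 3 each), and the log2 fold change of 0.33 (95% interval 0.10 to 0.57) did not pass the test after adjustment (adjusted *p* = 0.139, edgeR's quasi-likelihood test). *Vim* (ENSMUSG00000026728, chromosome 2, 13573927 to 13582826, plus strand), the filament that astrocytes share with endothelial and mesenchymal cells, was counted 1127, 1749 and 1481 times in wild-type and 1550, 1297 and 1351 times in knockout cortex. All 3 *Lgmn*−/−-IR values lay within the range of the *Lgmn*+/+-IR values. The log2 fold change was −0.09 (95% interval −0.50 to 0.31, adjusted *p* = 0.812), and it was 0.08 without *Lgmn*+/+-IR replicate 2. The interval of *Gfap* lies above that of *Serpina3n* (−1.20 to −0.46), and the interval of *Vim* overlaps that of *Serpina3n*.

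**Figure D2:**
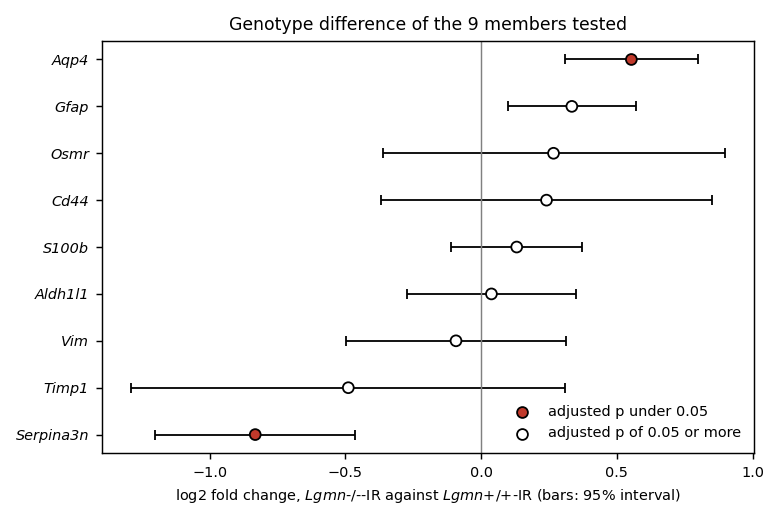
Log2 fold change of *Lgmn*−/−-IR against *Lgmn*+/+-IR for the 9 genes tested, with bars for the 95% interval from edgeR's quasi-likelihood fit and filled points for an adjusted *p* value under 0.05. *Serpina3n* lies at −0.83 and *Aqp4* at 0.55, and the intervals of 6 of the other 7 genes include 0, the exception being *Gfap*.

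To put the departure of *Serpina3n* from the other genes to a test of its own, the ratio of its counts to those of each other gene was taken within each library, where library size cancels. The *Serpina3n* to *Gfap* ratio was 0.125, 0.127 and 0.154 in wild-type libraries and 0.0748, 0.0427 and 0.0671 in knockout libraries. The genotypes did not overlap, and the log2 ratio was lower in *Lgmn*−/−-IR by −1.17 on the log2 scale. The *Serpina3n* to *Vim* ratio was 1.06, 0.699 and 1.04 in wild-type libraries and 0.550, 0.484 and 0.585 in knockout libraries, again without overlap, with a difference of −0.77 in log2 ratio. Both had a two-sided exact permutation *p* = 0.10, the smallest that 3 libraries against 3 allow, so that the design cannot reach 0.05. Over 8 such pairs (adjusted *p* = 0.114 for each of the 7 pairs without overlap), the difference was −1.39 for *Aqp4*, −1.15 for *Osmr*, −1.1 for *Cd44*, −0.98 for *S100b* and −0.88 for *Aldh1l1*. Only the ratio to *Timp1*, a gene of few counts, overlapped between genotypes among these pairs (difference −0.38, exact permutation *p* = 0.30). All 8 ratios share the counts of *Serpina3n* and are not independent of each other.

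**Figure D3:**
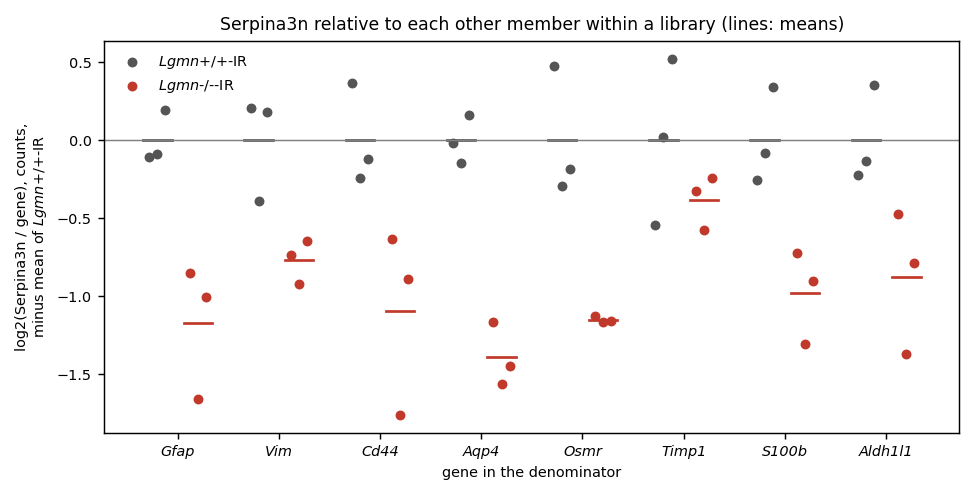
Log2 ratio of *Serpina3n* counts to the counts of each other gene within a library, shifted so that the mean of the *Lgmn*+/+-IR libraries (grey) is 0, with lines for group means. The *Lgmn*−/−-IR libraries (red) lie below all *Lgmn*+/+-IR libraries for every gene in the denominator except *Timp1*.

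*Aqp4* (ENSMUSG00000024411, on chromosome 18) was counted 2812, 3144 and 3201 times in wild-type and 4457, 4328 and 5009 times in knockout cortex. The lowest knockout value exceeded the highest wild-type value. The levels were 69.9 ± 3.78 and 103 ± 10.6 CPM (SD, n = 3 each), with a log2 fold change of 0.55 (standard error 0.10, 95% interval 0.31 to 0.80, adjusted *p* = 0.0374 by edgeR's quasi-likelihood test). Without *Lgmn*+/+-IR replicates 1, 2 and 3 in turn the adjusted *p* values were 0.122, 0.127 and 0.129, without *Lgmn*−/−-IR replicates 1 and 3 they were 0.0949 and 0.0899, and without *Lgmn*−/−-IR replicate 2 the call held (0.0432).

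The markers of astrocytes at large did not pass the test. *S100b* (chromosome 10, 76253853 to 76261159), a calcium-binding protein of astrocytes and also of some oligodendrocytes, was counted 5080, 4615 and 4341 times in wild-type and 5029, 5551 and 5271 times in knockout cortex, with a log2 fold change of 0.13 (95% interval −0.11 to 0.37). *Aldh1l1* (chromosome 6, 90486427 to 90600203), a folate enzyme used as a general astrocyte marker, was counted 3399, 3275 and 2947 times in wild-type and 2900, 3974 and 3332 times in knockout cortex, with a log2 fold change of 0.04 (95% interval −0.27 to 0.35). Both overlapped between genotypes, and the intervals of both included 0. *S100b* overlaps *Dip2a* on the opposite strand, and since it is not stated whether the counting used strand, reads of the pair may be mixed.

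The receptors were low. *Osmr* (chromosome 15, 6813577 to 6874969), the oncostatin M receptor subunit, was counted 108, 189 and 220 times in wild-type and 235, 178 and 222 times in knockout cortex (log2 fold change 0.27, 95% interval −0.36 to 0.90). *Cd44* (chromosome 2, 102811141 to 102901665), a receptor for hyaluronan, was counted 106, 166 and 192 times in wild-type and 152, 244 and 168 times in knockout cortex (log2 fold change 0.24, 95% interval −0.37 to 0.85). In both genes *Lgmn*+/+-IR replicate 1 was the lowest library and the genotypes overlapped. For these genes the deposited FPKM, which the authors computed by transcript, did not follow the counts closely. FPKM per CPM varied 1.68-fold between libraries for *Osmr* and 1.68-fold for *Cd44*, against 1.1-fold for *Serpina3n* and 1.11-fold for *Gfap*.

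The secreted genes *Timp1* and *Lcn2* were near the lower end of what this depth can measure. *Timp1* (X chromosome, 20870166 to 20874735), a metalloprotease inhibitor, was counted 26, 18 and 16 times in wild-type and 16, 14 and 14 times in knockout cortex (log2 fold change −0.49, 95% interval −1.29 to 0.31). It lies inside *Syn1*, a neuronal gene of the opposite strand with 31696 to 60299 counts per library. *Lcn2* (chromosome 2, 32384633 to 32388252), an iron-carrier protein of reactive astrocytes and of neutrophils, was counted 4, 13 and 9 times in wild-type and 157, 10 and 4 times in knockout cortex. The value of 157 stands alone in *Lgmn*−/−-IR replicate 1, and the other 5 libraries overlap. *Lcn2* was below the filter on low counts. Without the filter its log2 fold change was 2.67 (adjusted *p* = 0.465, edgeR's quasi-likelihood test), and without *Lgmn*−/−-IR replicate 1 it was −0.36 (adjusted *p* = 0.843). The neutrophil genes *S100a8* and *S100a9* had 23 and 32 counts in that same library and at most 7 in any other, and *Ly6g* had no count in any library. Their part in the *Lcn2* value was not tested.

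Levels can be compared between genes in FPKM, which is scaled for transcript length. In *Lgmn*+/+-IR the order of mean FPKM was *Gfap* 75.4, *S100b* 64.8, *Aldh1l1* 22.7, *Vim* 14.6, *Serpina3n* 13.0 and *Aqp4* 12.3, followed by *Osmr* 0.900, *Cd44* 0.894, *Timp1* 0.464 and *Lcn2* 0.153. *Vim*, *Serpina3n* and *Aqp4* overlapped in *Lgmn*+/+-IR, where their libraries spanned 11.8 to 17.9, 12.1 to 14.5 and 11.6 to 13.1 FPKM. Within each of these libraries *Vim* exceeded *Aqp4*, and the order of *Serpina3n* against either gene changed between libraries. In *Lgmn*−/−-IR the same genes stood apart, with *Aqp4* at 16.7 to 18.5, *Vim* at 12.1 to 14.7 and *Serpina3n* at 5.96 to 8.13 FPKM. *Osmr* and *Cd44* overlapped each other in both genotypes.

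The further genes of the reactive state and its signaling came from lists written from gene names. Of 6 other genes described as common to reactive astrocytes, 1 was called. *Hspb1*, a small heat shock protein, rose from 5.73 ± 1.55 to 14.1 ± 2.97 CPM (SD, n = 3 each; log2 fold change 1.3, standard error 0.25, adjusted *p* = 0.0380 by edgeR's quasi-likelihood test). The *Hspb1* call was lost when any 1 of the 6 libraries was left out (adjusted *p* = 0.0653 to 0.117). *Aspg*, *Cp*, *Cxcl10*, *S1pr3* and *Steap4* did not pass the test. Of 12 genes tested from a list linked to the neurotoxic (A1) form, *H2-D1* rose (log2 fold change 1.89) and *H2-T23* fell (log2 fold change −2.65), both being class I genes that many cell types express, and the other 10 did not pass. *C3*, the complement gene most used for this form, was counted 11, 35 and 14 times in wild-type and 22, 14 and 2 times in knockout cortex. The percentages called were 16.7% in both lists, against 3.33% of all genes tested.

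Of the genes linked to the A2 form, 0 of 11 tested were called by edgeR or limma-voom (which called 3.33% and 3.24% of all genes), 4 had an unadjusted *p* value under 0.05 (beside 18.6% of all genes), and DESeq2 called 2 (7.76% of all genes). Of the ligands, receptors, kinases and regulators of the gp130 and STAT3 route, 0 of 17 tested were called by edgeR, DESeq2 or limma-voom, and 2 had an unadjusted *p* value under 0.05 (18.6% of all genes). *Stat3* itself had 47.6 ± 6.0 and 50.5 ± 1.41 CPM (SD, n = 3 each; log2 fold change 0.08). *Socs3*, a feedback inhibitor that STAT3 induces, was counted 181, 160 and 190 times in wild-type and 205, 240 and 280 times in knockout cortex (log2 fold change 0.41, adjusted *p* = 0.257, edgeR's quasi-likelihood test). The *Lgmn*−/−-IR libraries of *Socs3* were all above the *Lgmn*+/+-IR libraries. Of the 17 genes tested on this route, 3 were without overlap, all higher (17.6%, against 25.7% of all genes tested, of which 12.4% were higher). *Osm*, the ligand of the receptor above, had between 0 and 10 counts per library, and *Il6* had none. Of the filament partners, 0 of 6 were called by any of these tools (1 with an unadjusted *p* value under 0.05), *Nes* and *Synm* having log2 fold changes of 0.18 and −0.04.

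Astrocyte content was read from 22 identity genes, among them the glutamate transporters *Slc1a2* and *Slc1a3* (log2 fold changes −0.06 and 0.26). Of these, 0 of 22 were called by edgeR or limma-voom (3.33% and 3.24% of all genes), 6 had an unadjusted *p* value under 0.05 (beside 18.6% of all genes), and DESeq2 called 3 of the 22 against 7.76% of all genes (*Gja1*, *Ntsr2* and *Apoe*, all higher in *Lgmn*−/−-IR). Their summed level was between 10128 and 11312 CPM in *Lgmn*+/+-IR and between 11114 and 11545 CPM in *Lgmn*−/−-IR, and their median log2 fold change was 0.05. Set against this sum, a ratio chosen after the values were seen, *Serpina3n* was lower in every *Lgmn*−/−-IR library (difference of −0.93 in log2 ratio, exact permutation *p* = 0.10, the smallest possible), and *Aqp4* and *Gfap* were higher in every one (0.46 and 0.24).

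Some lists of other cell types, though not most, also held called genes. Of 8 oligodendrocyte genes, 6 fell (75%, against 1.68% of all genes tested in this direction), *Mobp*, which encodes a protein of myelin, from 1121 ± 117 to 516 ± 45.0 CPM (SD, n = 3 each; adjusted *p* = 0.00330 by edgeR's quasi-likelihood test). *Mog* and *Cldn11*, also genes of myelin, were among the others that fell (log2 fold changes −0.91 and −0.68), while *Mbp* did not pass (log2 fold change −0.24). Between 1 and 5 of the 8 were called when 1 library was left out, with 1 call without wild-type replicate 1, wild-type replicate 2 or knockout replicate 3, and 2 without knockout replicate 1. The 8 genes summed to 4310, 4380 and 3623 CPM in *Lgmn*+/+-IR and to 2399, 2573 and 2452 CPM in *Lgmn*−/−-IR, and none was at 0. *Serpina3n* is also known from oligodendrocytes in injury. Relative to the oligodendrocyte sum, a ratio likewise chosen after the values were seen, *Serpina3n* was 6.48, 6.51 and 9.34 CPM per 1000 CPM in wild-type libraries and 8.0, 5.26 and 7.34 in knockout libraries. These values overlapped (difference of −0.12 in log2 ratio), as follows from levels of 0.562-fold for *Serpina3n* and 0.603-fold for the sum. Against the striatal sum the values overlapped as well (−0.21), and against the microglia sum they did not (−0.67). The part of oligodendrocyte RNA in the fall of *Serpina3n* was not tested.

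**Figure D4:**
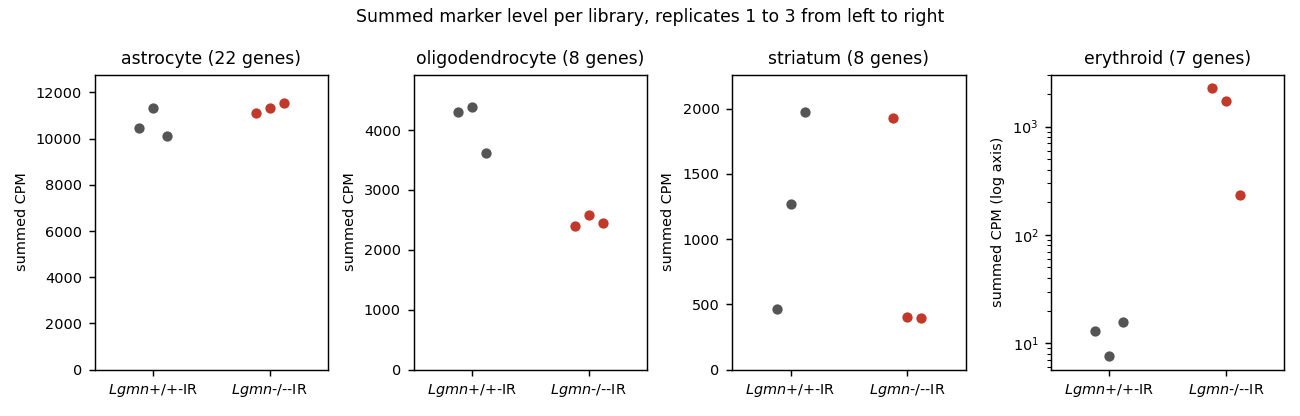
Summed CPM of marker lists in each *Lgmn*+/+-IR (grey) and *Lgmn*−/−-IR (red) library, with a log axis for the erythroid genes. The astrocyte sums overlap, the oligodendrocyte sums are lower and the erythroid sums higher in every *Lgmn*−/−-IR library, and the striatal sums split both genotypes.

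Among 10 microglia, 10 neuron, 6 oligodendrocyte precursor, 8 endothelial and 8 mural and fibroblast genes, none was called by edgeR or limma-voom (3.33% and 3.24% of all genes). With lists this short, such shares leave few calls to be found. DESeq2, which called 7.76% of all genes, called 1 microglia gene (*Csf1r*, lower) and 1 endothelial gene (*Slco1a4*, lower). An unadjusted *p* value under 0.05 was found for 2, 1, 0, 1 and 1 genes of these lists, in the order named, beside 18.6% of all genes. The log2 fold changes of the first listed were −0.02 and −0.10 for *Tmem119* and *P2ry12* of microglia, 0.02 and 0.22 for *Rbfox3* and *Snap25* of neurons, −0.14 and −0.17 for *Pdgfra* and *Cspg4* of oligodendrocyte precursors, 0.49 and 0.53 for *Cldn5* and *Pecam1* of endothelium, and −0.22 and −0.35 for *Pdgfrb* and *Rgs5* of mural cells. The choroid plexus and ependymal list gave 1 call of 8, *Foxj1*, which was lower (log2 fold change −0.73; 1.68% of all genes were called lower). The *Foxj1* call was lost when any 1 library was left out (adjusted *p* = 0.0676 to 0.135) and with the striatal covariate described next (0.0517). Of 10 leukocyte genes 4 had no count in any library, and only *Itgal*, an integrin of leukocytes, had enough counts to be tested. It had 0, 16 and 10 counts in wild-type and 45, 43 and 58 counts in knockout libraries (adjusted *p* = 0.156 by edgeR's quasi-likelihood test, called by DESeq2, which called 7.76% of all genes). *Itgal* passed the filter on low counts through its knockout counts alone, so that a rise is favored by the choice and these tests cannot decide it. Of 7 erythroid genes 5 were tested and all 5, *Hba-a1*, *Hba-a2*, *Hbb-bs*, *Hbb-bt* and *Alas2*, rose in edgeR, beside 1.65% of all genes called higher. In limma-voom 3 were called (3.24% of all genes). Without wild-type replicates 1, 2 and 3 in turn, 2, 0 and 1 were called (1.64%, 1.19% and 1.37% of all genes). The erythroid list summed to between 7.59 and 15.9 CPM in *Lgmn*+/+-IR and to 2273, 1730 and 234 CPM in *Lgmn*−/−-IR replicates 1, 2 and 3. The 8 striatal genes, with the dopamine receptors *Drd1* and *Drd2* among them, which should be low in cortex, summed to 463, 1268 and 1978 CPM in *Lgmn*+/+-IR and to 1933, 406 and 399 CPM in *Lgmn*−/−-IR, a 4.96-fold range that did not follow genotype. With a striatal score as a covariate, an alternative added after this was seen, the adjusted *p* values of *Serpina3n* and *Aqp4* were 0.0541 and 0.0675 (log2 fold changes −0.75 and 0.56), with 2.95% of all genes called. The part of blood and dissection in these values was not tested further.

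*Serpina3n* is the only gene of the 10 on the chromosome of the targeted gene. Its start lies 1.97 Mb from the end of *Lgmn* (chromosome 12, 102394084 to 102439813). Within 10 Mb of *Lgmn*, 3 of 155 genes tested were called (1.94%, against 3.33% of all genes tested), namely *Serpina3n*, *Serpina3h* and *Xrcc3*, all lower in *Lgmn*−/−-IR. Of these, *Serpina3h* passed the filter on low counts through the wild-type libraries alone. *Serpina3n* had the 10th largest absolute log2 fold change of the 155. An effect of the knockout and an effect of DNA linked to the targeted locus cannot be told apart here.

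**Figure D5:**
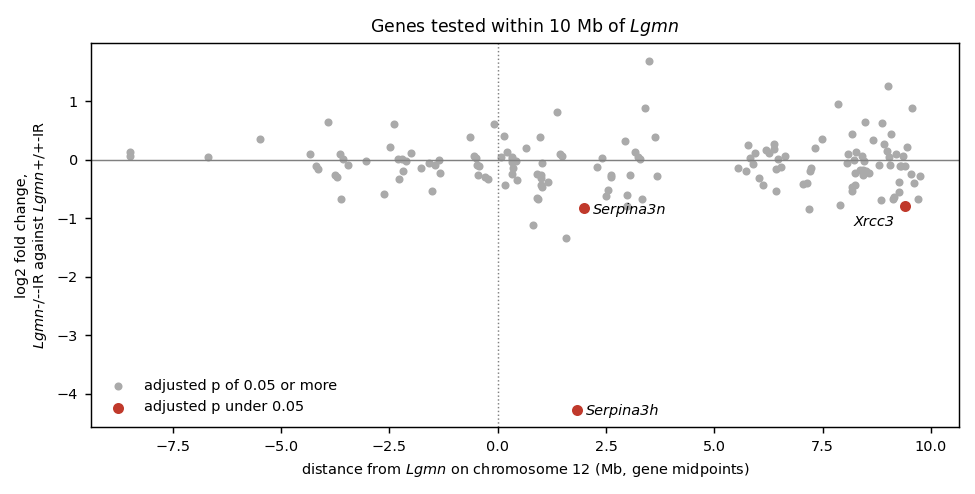
Log2 fold change of the 155 genes tested within 10 Mb of *Lgmn*, by the distance of gene midpoints in Mb, with red points for an adjusted *p* value under 0.05. *Serpina3h* at −4.27 and *Serpina3n* at −0.83 lie close together among genes that mostly scatter around 0.

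The family of *Serpina3* genes holds 14 members in one cluster, of which 7 had no count in any library and 2 were tested. *Serpina3h* (chromosome 12, 104247905 to 104253669), annotated as a transcribed pseudogene, was counted 27, 25 and 30 times in wild-type and 2, 2 and 0 times in knockout cortex. Its wild-type mean was 9.36-fold a floor of 3 counts per library, a floor that covers counting error only. *Serpina3h* passed the filter on low counts through its wild-type counts alone, so that a fall is favored by the choice and the test cannot decide it. The log2 fold change was −4.27 (95% interval −5.67 to −2.88, adjusted *p* = 0.0122 by edgeR's quasi-likelihood test). The adjusted *p* values of this test were 0.0606 and 0.0559 without wild-type replicates 2 and 3, and 0.0931 with replicate number as a block. *Serpina3g*, below the filter, stood the other way with values of 5, 6 and 6 in wild-type and 42, 8 and 14 in knockout cortex. Annotated transcripts of the family are at most 88.0% identical to *Serpina3n* over their longest alignment (*Serpina3c*), and 86.0% for *Serpina3h*, whose counts are few beside the 628 or more of *Serpina3n* in each library.

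The genes whose libraries followed *Serpina3n* most closely were sought by the root mean square distance of centered log2 CPM over the 6 libraries, among 15019 genes with a mean of at least 1 CPM. They were *Arl15* (distance 0.0856), *Sp140* (0.102), *Zfp97* (0.104), *Rasl12* (0.108) and *Zfp125* (0.109). None of the 5 is an astrocyte gene of the lists above. *Arl15*, a small GTPase gene, was counted 1536, 1691 and 2018 times in wild-type and 1116, 774 and 904 times in knockout cortex (log2 fold change −0.94). Since these genes were chosen for following *Serpina3n*, a like difference between genotypes is part of the choice and was given no test.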

How the data were processed

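Polyadenylated RNA was sequenced in 6 cortex libraries. The authors used Trimmomatic 0.36 for trimming, HISAT2 for mapping and StringTie for expression. They deposited the raw count of each gene, not normalized, and its FPKM. The build is GRCm38 per the labels, while the annotation, the read counter and the use of strand are not given in the sources used here. Total counts were 41874462 to 46829441 per library. Groups follow the sample titles. Positions come from GENCODE M21, which matched 51633 of the gene IDs.

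The fit of genotype alone used edgeR 4.0.16 under R 4.3.3, with TMM, the filterByExpr filter, the quasi-likelihood test and Benjamini-Hochberg adjustment, and was tested on simulated data. CPM are TMM-normalized. Ratios within a library were compared by two-sided exact permutation tests. Similar transcripts were sought with BLAST 2.17.0. Alternatives were DESeq2 1.42.0, limma 3.58.1 (voom, and log2(FPKM + pseudocount) with 1 and 0.1), changed filters and scaling, a block for replicate number, a striatal covariate and the omission of each library.

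Named genes, so far as they bear on the results, are the 10 genes, *Lgmn*, the *Serpina3* family, in each list up to 4 called genes with the largest change (where fewer than 2 were called, the first 2 listed), and the 5 nearest in pattern to *Serpina3n*. A gene that the rule names in a marker list is not reported here. Others (*Ly6g*, *S100a8*, *S100a9*, *C3*, *Socs3*, *Stat3*, *Xrcc3* and those that only DESeq2 called among them) were named after their values were seen. The genes and lists were chosen with earlier results of these data known. The labels do not say whether the libraries of a genotype came from separate mice, so that *p* values measure the spread between these libraries, which may be technical. Libraries of a genotype differed by more than counting noise (mean chi-square of 28.8 to 103 per gene), so none was taken as a library deposited again, which does not show that they are separate animals.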

Additional observations from a re-analysis of the deposited data

How the results depend on the processing

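With 3 libraries per genotype the calls of *Serpina3n* and *Aqp4* lie near the threshold, and leaving out 1 library left between 0 and 1 of the 10 genes called and between 223 and 500 of all genes (2 and 611 with all libraries). Leaving out a library kept *Serpina3n* between −0.93 and −0.69, and the *Serpina3n* to *Gfap* and to *Vim* differences between −1.33 and −0.93 and between −0.96 and −0.66. *Serpina3n* kept its direction in all 16 alternatives and its call in 7. Its log2 fold change was −0.82 without the filter on low counts and −0.75 with the striatal covariate, and 0 of the 10 genes were called under either. Over all genes 404 were called without the filter, 406 with at least 10 counts in every library and 1423 with DESeq2.

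Genotypes share replicate numbers 1 to 3, but same-numbered libraries come from different mice and did not deviate together (correlations of −0.30, −0.05 and −0.05). With replicate number added as a block, *Serpina3n* was at −0.84 (adjusted *p* = 0.0981), 0 of the 10 genes, 2 of the 8 oligodendrocyte genes, 0 of the erythroid genes and 150 of all genes were called, and the paired ratios gave −1.17 for *Gfap* and −0.77 for *Vim* (exact permutation *p* = 0.25, the smallest that 3 pairs allow).

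Signs changed for genes near 0. *Vim* was 0.016 with the striatal covariate and between −0.23 and 0.081 without single libraries. *Osmr* was −0.0049 and *Aldh1l1* −0.020 on log2(FPKM + 1), and *Aldh1l1* was −0.021 on log2(FPKM + 0.1) and −0.056 with the striatal covariate, and without single libraries it was between −0.057 and 0.13. The cause was not tested. Counting limits *Timp1*, *Lcn2* and *Osm*.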

Other observations

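A few genes of the lists stood apart in either direction, mostly without passing the test. Of the 22 astrocyte identity genes, 5 were higher and 1 lower without overlap (27.3%, against 25.7% of all genes tested). Of the 6 other reactive genes, 2 were higher and 1 lower (50%), with *Hspb1*, which was called as given above, among the higher ones. The lower ones were *Glul* (log2 fold change −0.21, adjusted *p* = 0.258) and *Aspg* (−0.66, adjusted *p* = 0.226), both by edgeR's quasi-likelihood test. *Steap4*, a metalloreductase gene counted among the reactive astrocyte genes, was counted 0, 0 and 10 times in wild-type and 36, 22 and 26 times in knockout cortex (adjusted *p* = 0.164, edgeR's quasi-likelihood test). *Gja1*, the main gap junction protein of astrocytes, had 85.5, 91.5 and 95.4 CPM in *Lgmn*+/+-IR and 112, 211 and 133 CPM in *Lgmn*−/−-IR (log2 fold change 0.74, adjusted *p* = 0.140), the highest value falling in the library where *Gfap* was also highest. *Apoe*, the main apolipoprotein that astrocytes secrete, had 976 ± 73.8 and 1351 ± 136 CPM (SD, n = 3 each; log2 fold change 0.47, adjusted *p* = 0.0674). DESeq2 also called *Ptgs2* (log2 fold change 0.64) and *Cd14* (−0.86) of the A2 list, whose adjusted *p* values in edgeR were 0.0906 and 0.112.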
